A study of Solanum lycopersicum with 6 samples.

Results

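Sterols and many plant defence compounds are built from mevalonate, which the cytosolic mevalonate pathway makes from acetyl-CoA. HMG-CoA reductase, an enzyme of the endoplasmic reticulum membrane, forms mevalonate and is regarded as the main control point of that pathway. Squalene synthase then joins farnesyl diphosphate into squalene, the first step given over to sterols and other triterpenes, while sesquiterpene synthases compete for the same substrate. Cycloartenol synthase closes oxidised squalene into cycloartenol, the first plant sterol, and the sterol side chain reductase SSR2 turns cycloartenol towards cholesterol, from which tomato makes its steroidal glycoalkaloids.

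The genes described here are the 3 HMG-CoA reductase genes of tomato and 3 genes of early sterol synthesis, 6 of the 34688 gene models with estimated counts. They were chosen by locus. HMGR1 is Solyc02g082260.3.1, HMGR2, the wound-inducible form, is Solyc02g038740.4.1 and HMGR3 is Solyc03g032020.5.1. Squalene synthase (SQS) is Solyc01g110290.3.1, cycloartenol synthase (CAS) is Solyc04g070980.4.1 and SSR2 is Solyc02g069490.4.1. In the tomato locus naming scheme these identifiers place HMGR1, HMGR2 and SSR2 on chromosome 2, HMGR3 on chromosome 3, SQS on chromosome 1 and CAS on chromosome 4.

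Bulk RNA-seq compared 3 libraries of protoplasted roots with 3 libraries of undigested whole roots, both from wild-type tomato (Solanum lycopersicum, cultivar M82) at 7 days after sowing. The treatment text gives 50 to 100 primary roots per sample, cut about 3 cm from the tip. That text is the same for both groups and describes the digestion, so the cut of the whole roots rests on it alone. Protoplasts, cells freed of their walls, were released with cellulases, Macerozyme and pectolyase in a mannitol solution over 2 h at 25 °C, and the labels name no mock incubation for whole roots, so that wall digestion, osmoticum and incubation time cannot be told apart. The comparison asks which transcripts differ once roots have been turned into protoplasts, the state in which single cells were profiled by the study.

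Library totals were 5198513 to 5666102 estimated counts for protoplasted and 5662566 to 5790082 for whole roots. Reads came from the 3′ ends of transcripts, so values were not divided by transcript length and levels of different genes are compared only approximately. Levels are given as normalized CPM, counts relative to the library total after TMM scaling, and a count of 0 allows a level of up to 0.479 to 0.626 CPM on this scale, depending on the library (3 counts, for counting error only). The labels call the libraries of a group replicates without naming separate cultures, so p-values measure the spread between these samples. In bulk tissue, a change in the cells present and a change in RNA per cell cannot be told apart.

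All 5 genes with enough counts to be tested were higher in protoplasted than in whole roots, and 0 were lower, with p-values from the quasi-likelihood test of edgeR that were adjusted by Benjamini-Hochberg over 15966 genes and called under 0.05 (n = 3 per group). At the same threshold 17.0% of all genes tested were higher and 18.7% were lower. The median log2 fold change of the 5 genes was 1.66, against 0.02 over all genes tested. All 5 reached the filter's 1.77 CPM in each of the 6 libraries, so none passed it through its high group alone. HMGR3 failed the filter and has no value in this test. In CPM, all 3 protoplasted libraries lay above all 3 whole-root libraries for each of the 6 genes, as they did for 25.1% of the genes tested, while 25.6% showed the reverse. The count of higher genes was 3 of 5 without protoplasted replicate 1 or without protoplasted replicate 2, since SQS and CAS then missed the threshold.

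**Figure D1:**
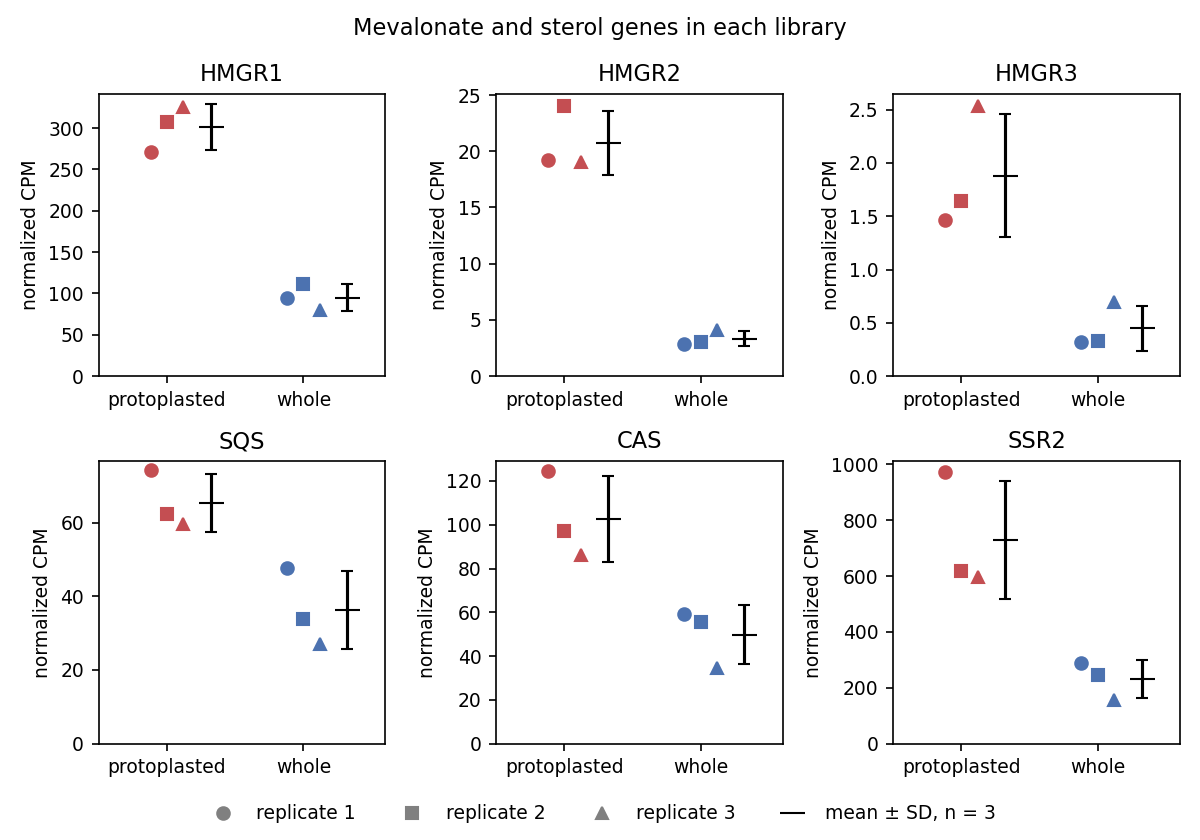
Normalized CPM (vertical axis, from 0, with its own range in each panel) of the 6 genes in each library, protoplasted at the left and whole roots at the right of each panel. Symbols mark the replicate number and bars give the mean ± SD of 3 libraries. In all 6 panels the 3 protoplasted libraries lie above the 3 whole-root libraries.

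HMGR2 had the largest fold change of the 5 genes tested. In tomato and other Solanaceae this form is known for its induction by wounding and pathogens. It had 92, 117 and 105 estimated counts in protoplasted replicates 1, 2 and 3, against 18, 18 and 24 in whole roots, which is 19.2, 24.1 and 19.0 CPM in protoplasted and 2.88, 3.00 and 4.15 CPM in whole roots. The groups were far apart, with the lowest protoplasted library 4.58 times the highest whole-root library. The rise was 6.19-fold (95% interval 3.86 to 9.91), or 2.63 ± 0.30 on the log2 scale (standard error, adjusted p = 0.000667 in edgeR). HMGR2 was the only one of the 5 also past a log2 fold change of 2, a bound used for protoplast-induced genes, as were 4.15% of all genes tested. The lower end of its interval on the log2 scale was 1.95, just under that level.

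HMGR1, the form tied in tomato to sterol supply in growing tissue, was by far the most counted of the 3 reductase genes. It stood at 271, 308 and 326 CPM in protoplasted replicates 1, 2 and 3, against 94.0, 112 and 79.7 CPM in whole roots. Every protoplasted library was at least 2.42 times the highest whole-root library. The rise was 3.17-fold (95% interval 2.27 to 4.43), or 1.66 ± 0.21 on the log2 scale (standard error, adjusted p = 0.000997 in edgeR). Its fold change exceeded that of 94.1% of the genes tested, and that of HMGR2 exceeded 97.7%.

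HMGR3 was close to the limit of detection. It had 7.01, 8.14 and 14.4 estimated counts in protoplasted replicates 1, 2 and 3, against 2.035, 2.06 and 4.25 in whole roots. The groups did not overlap, but 2 of the whole-root values lie under the floor of 3 counts. Summed over libraries and rounded, 29 counts in protoplasted stood against 8 in whole roots, a ratio of 4.31 per normalized depth with a counting interval of 1.92 to 10.9 that leaves out the spread between libraries. In a fit without the filter, chosen for this gene after its counts were seen, the log2 fold change was 2.03 and did not pass the threshold (adjusted p = 0.0721 in edgeR, 0.0763 to 0.218 over its alternatives). The estimates of HMGR3 were not whole numbers in any of the 6 libraries (tolerance 0.001), so some of its reads also matched other transcripts, which leaves its level uncertain. The other 5 genes had whole counts throughout.

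Together the reductase genes held 292, 333 and 347 CPM in protoplasted replicates 1, 2 and 3, against 97.2, 115 and 84.5 CPM in whole roots. The sum was thus 324 ± 29.0 CPM in protoplasted and 98.9 ± 15.4 CPM in whole roots (SD, n = 3 each), 3.28 times as high, and the groups were separate (two-sided exact permutation p = 0.1, which is as small as 3 against 3 libraries can give).

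Since depth cancels within a library, the shares of the 3 genes in their summed counts were compared as well. HMGR2 made up 6.59%, 7.22% and 5.47% of the reductase counts in protoplasted replicates 1, 2 and 3, against 2.96%, 2.60% and 4.91% in whole roots. These values did not overlap, although protoplasted and whole replicate 3 came close to each other. The mean share of HMGR2 was 6.43% ± 0.88 in protoplasted and 3.49% ± 1.24 in whole roots (SD, n = 3 each), 2.94 percentage points higher (two-sided exact permutation p = 0.1, adjusted p = 0.15 over the 3 shares). HMGR1 made up 93.0% ± 0.76 in protoplasted and 96.0% ± 1.53 in whole roots (SD, n = 3 each), so it stayed the main form in both. The share of HMGR3 was 0.575% ± 0.134 in protoplasted and 0.479% ± 0.294 in whole roots (SD, n = 3 each), and the groups overlapped (exact permutation p = 0.6).

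**Figure D2:**
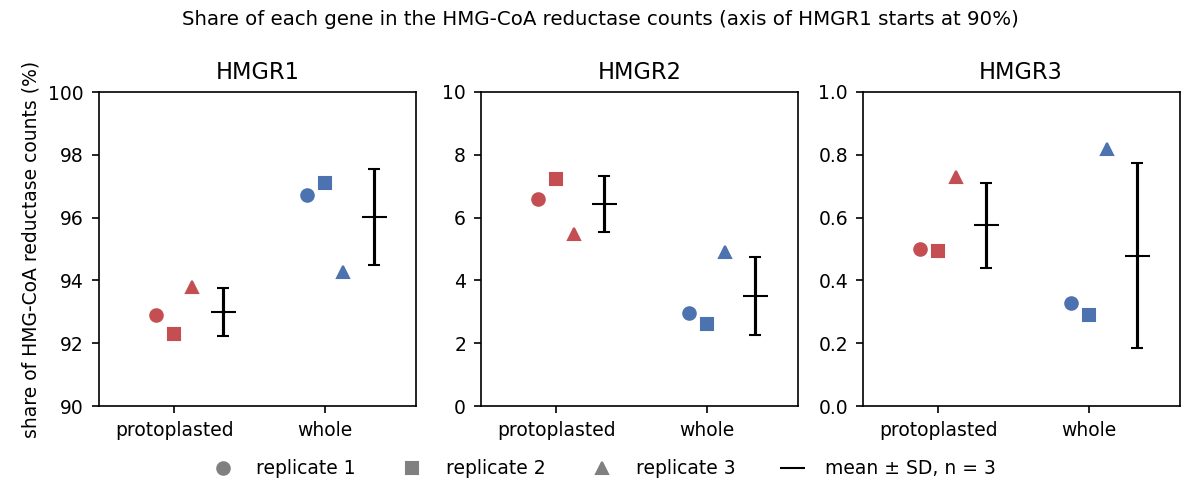
Share of each gene in the summed counts of HMGR1, HMGR2 and HMGR3 (percent, vertical axis, which starts at 0 for HMGR2 and HMGR3 but not for HMGR1) in each library, protoplasted at the left and whole roots at the right, with mean ± SD of 3 libraries. The 3 protoplasted libraries lie above the whole-root libraries for HMGR2, below them for HMGR1 and among them for HMGR3.

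SSR2, the reductase at the branch to cholesterol, was the most counted of the 6 genes. It reached 972, 617 and 598 CPM in protoplasted replicates 1, 2 and 3, against 289.9, 246 and 158 CPM in whole roots. Protoplasted replicate 1 stood apart from the other protoplasted libraries, and all 3 lay above the whole-root libraries by at least 2.06 times. The rise was 3.15-fold (95% interval 1.97 to 5.04), or 1.66 ± 0.30 on the log2 scale (standard error, adjusted p = 0.00371 in edgeR). Without protoplasted replicate 1 the log2 fold change was 1.37 and still past the threshold (adjusted p = 0.0121 in edgeR, 8.7e-06 to 0.0175 over the alternatives). On the scale of mean CPM, SSR2 exceeded 98.6% of the genes tested in protoplasted and 95.4% in whole roots.

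CAS, which makes the substrate of SSR2, had a smaller fold change. It had 125, 97.1 and 86.4 CPM in protoplasted replicates 1, 2 and 3, against 59.1, 55.6 and 34.4 CPM in whole roots. The groups were separate by 1.46 times at their nearest libraries. The rise was 2.06-fold (95% interval 1.35 to 3.14), or 1.05 ± 0.27 on the log2 scale (standard error, adjusted p = 0.0167 in edgeR). Without protoplasted replicate 1 or 2 the adjusted p was 0.0609 or 0.0579 in edgeR, within 0.000322 to 0.0609 over the alternatives.

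SQS, upstream of CAS in the pathway, had the smallest fold change of the 5. Its levels were 74.3, 62.3 and 59.6 CPM in protoplasted replicates 1, 2 and 3, against 47.8, 33.8 and 27.0 CPM in whole roots. The lowest protoplasted library was 1.25 times the highest whole-root library, a gap narrower than the 1.77-fold range among whole-root libraries. The rise was 1.81-fold (95% interval 1.21 to 2.70), or 0.85 ± 0.26 on the log2 scale (standard error, adjusted p = 0.0309 in edgeR). This call did not hold without whole replicate 2 or 3 or without any 1 of the protoplasted libraries, where the adjusted p in edgeR ran from 0.057 to 0.105.

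**Figure D3:**
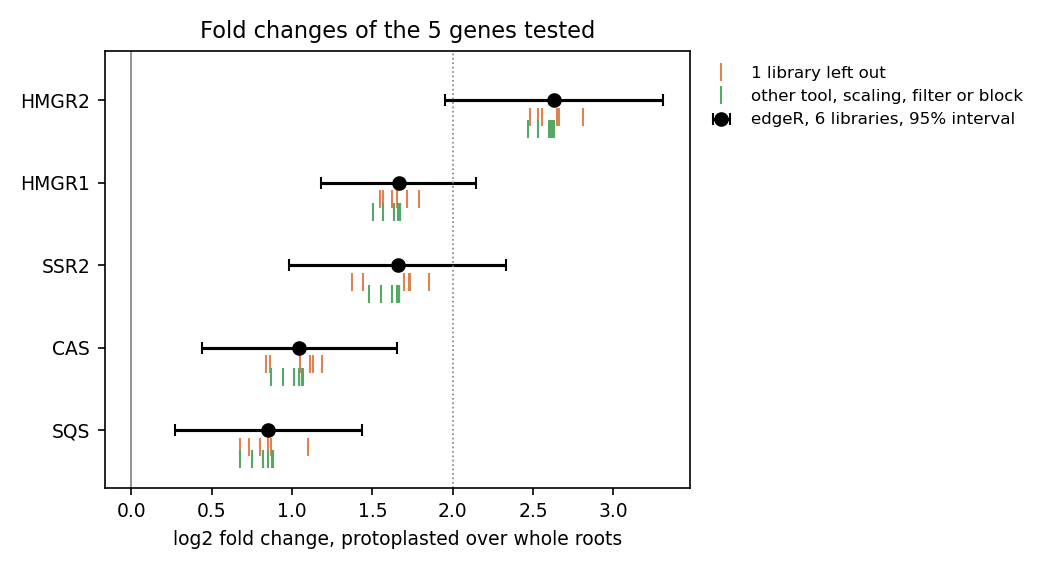
Log2 fold change of protoplasted over whole roots (horizontal axis) for the 5 genes tested, from the largest at the top to the smallest at the bottom. Black points and bars give the edgeR estimate with its 95% interval, orange ticks the 6 fits that each left out 1 library, green ticks the other tools, scalings, filters and blocked fits, and the dotted line a log2 fold change of 2. Every tick lies above 0, and HMGR2 alone lies past the dotted line.

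Replicate 1 was the highest and replicate 3 the lowest library for SQS, CAS and SSR2 in both groups. HMGR1 did not share that order, being lowest in protoplasted replicate 1 and highest in protoplasted replicate 3. Within a replicate number, protoplasted over whole CPM was 1.55, 1.84 and 2.21 for SQS in replicates 1, 2 and 3. The same ratio was 2.11, 1.75 and 2.51 for CAS and 3.35, 2.51 and 3.79 for SSR2. All 3 genes were therefore higher in protoplasts in each of the 3 replicate numbers, with the largest ratio in replicate 3. For HMGR1 the ratio was 2.88, 2.75 and 4.09, and for HMGR2 it was 6.67, 8.03 and 4.58, smallest in replicate 3.

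Unequal rises were compared through log2 ratios of counts within a library, for all 15 pairs of the 6 genes. In 6 pairs the groups did not overlap, each with an exact permutation p of 0.1, the smallest possible, and an adjusted p of 0.25 over the 15 pairs. Taken within replicate numbers, the difference had 1 sign in all 3 numbers for 11 pairs, these 6 and 5 that overlapped, among them HMGR1 to CAS (0.45, 0.66 and 0.70) and HMGR2 to SSR2 (0.96, 1.64 and 0.25), each with a paired exact permutation p of 0.25, the smallest that 3 pairs allow. Neither count was set against pairs drawn from all genes tested, so neither tells these 6 genes from others. The 15 pairs are built from 6 genes, so they are not separate results. For normalized CPM of single genes, a measure unlike these ratios, all protoplasted libraries lay above all whole-root libraries in 25.1% of the genes tested. They lay below them in 25.6%. HMGR2 stood higher relative to both SQS and CAS in all 3 protoplasted libraries. Its log2 ratio to SQS was -1.65 ± 0.29 in protoplasted and -3.38 ± 0.67 in whole roots (SD, n = 3 each), a difference of 1.73, and the difference of its ratio to CAS was 1.55. The log2 ratio of HMGR1 to HMGR2 was 3.86 ± 0.22 in protoplasted and 4.80 ± 0.50 in whole roots, and that of HMGR1 to SQS was 2.21 ± 0.30 in protoplasted and 1.42 ± 0.39 in whole roots (SD, n = 3 each).

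Among the sterol genes, SSR2 stood higher relative to the steps before it in all 3 protoplasted libraries. The log2 ratio of CAS to SSR2 was -2.81 ± 0.15 in protoplasted and -2.21 ± 0.08 in whole roots, and that of SQS to SSR2 was -3.45 ± 0.23 in protoplasted and -2.67 ± 0.17 in whole roots (SD, n = 3 each), differences of -0.60 and -0.78. SQS and CAS overlapped in their ratio to each other, at -0.64 ± 0.10 in protoplasted and -0.46 ± 0.23 in whole roots (SD, n = 3 each, exact permutation p = 0.3). HMGR1 and SSR2 had a log2 ratio of -1.24 ± 0.53 in protoplasted and -1.25 ± 0.34 in whole roots (SD, n = 3 each, exact permutation p = 1), and a p of this size does not show that they moved alike.

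**Figure D4:**
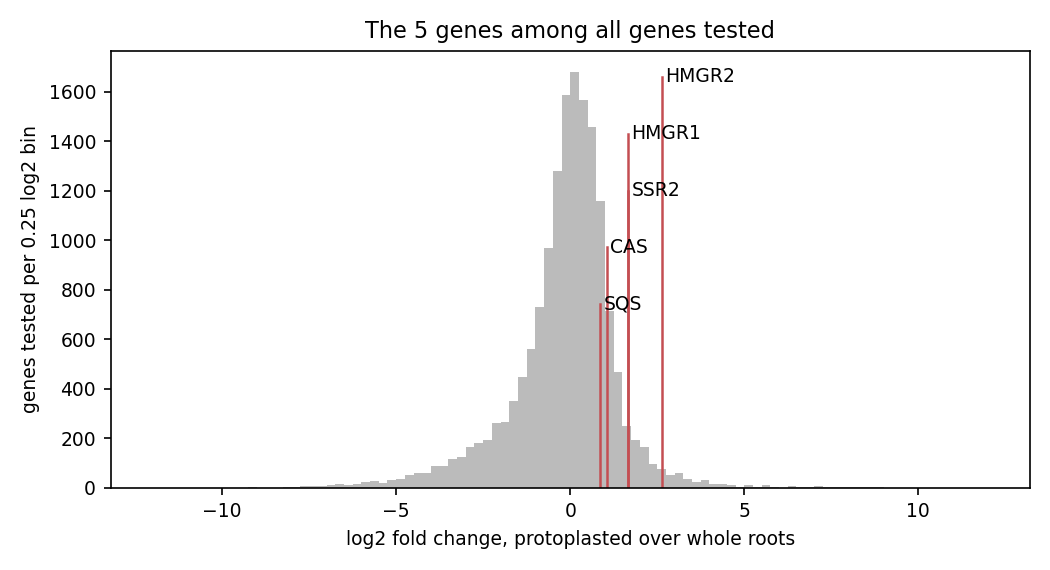
Number of genes (vertical axis) in bins of 0.25 of the log2 fold change of protoplasted over whole roots (horizontal axis) for the 15966 genes tested, with red lines at the 5 genes described. The heights of the lines carry no value. SQS, at 0.85, lies on the upper shoulder of the distribution and HMGR2, at 2.63, in its upper tail.

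Likeness of pattern was taken as the Euclidean distance between the 6 log2 CPM values, each centred on the gene's own mean, among all genes tested. The gene nearest to HMGR1 was Solyc10g011820.5.1 (distance 0.22), for which no annotation was in hand. It had 485, 539 and 505 CPM in protoplasted replicates 1, 2 and 3, against 151, 172 and 124 CPM in whole roots. A like order of libraries is built into the choice of a nearest gene. The order was still not the same, since this gene was highest in protoplasted replicate 2 and HMGR1 in protoplasted replicate 3. Nearest to HMGR2 was Solyc08g005690.1.1 (distance 0.38), also without annotation, which had 2.50, 2.88 and 2.17 CPM in protoplasted replicates 1, 2 and 3, against 0, 0 and 0.17 CPM in whole roots. Counts this low are drawn together by the prior count of 2 in the measure. CAS ranked 296th of 15965 genes in nearness to SQS, and SQS ranked 231st in nearness to CAS. HMGR2 ranked 10972nd for SQS, and SQS ranked 2511th for HMGR2, at the same distance. These ranks describe 6 libraries and all 5 genes share them.

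Genes of suberin, the barrier polymer that tomato roots lay down in the exodermis, stood the other way. The study names 13 suberin enzymes and regulators by locus, of which SlFAR3B was not among the gene models with estimated counts. Of the other 12, 11 were tested and all 11 were lower in protoplasted roots than in whole ones (edgeR, adjusted p under 0.05, median log2 fold change -6.07). At that threshold 18.7% of all genes tested were lower. The summed level of the 12 was 13.6, 15.6 and 51.1 CPM in protoplasted replicates 1, 2 and 3, against 1425, 1642 and 2819 CPM in whole roots. None of the 12 was at 0 throughout either group, though SlMYB63 had at most 1 count in any library. Replicate 3 held the highest sum in both groups. It was the lowest library of both groups for SQS, CAS and SSR2, whereas HMGR1 was lowest in whole replicate 3 and highest in protoplasted replicate 3. HMGR2 was highest in whole replicate 3 and, by a narrow margin, lowest in protoplasted replicate 3. Without whole replicate 3 the log2 fold changes of HMGR1, HMGR2, SQS, CAS and SSR2 were 1.55, 2.81, 0.68, 0.84 and 1.44 in that order. Without protoplasted replicate 3 they were 1.56, 2.65, 0.87, 1.11 and 1.73, and with all libraries 1.66, 2.63, 0.85, 1.05 and 1.66. The direction of each shift follows from the place of the omitted library within its group, so these fits are no test of a link to suberin. The part of the change in suberin transcripts in the rise of the mevalonate and sterol genes was not tested.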

How the data were processed

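Libraries were made with the QuantSeq 3′ mRNA-seq FWD kit. The authors trimmed reads with Trim Galore 0.6.6, quantified read 1 on the ITAG4.1 transcripts by Kallisto 0.46.2 pseudo-alignment, and deposited unnormalized estimated counts per gene model. No strand option is given in the sources used here. Estimated counts were rounded, filtered with filterByExpr (minimum count 10, minimum total 15), scaled by TMM and compared by the quasi-likelihood test of edgeR 4.0.16 (R 4.3.3), without a replicate block. Shares and ratios (pseudocount 0.5) were compared by exact permutation over libraries. The test was checked on simulated counts. No pair of libraries within a group held matching counts (lowest chi-square 13.2 per degree of freedom).

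Same-numbered libraries of the 2 groups deviated together from their group means, weakly in replicate 2 (correlations 0.429, 0.114 and 0.538 in replicates 1, 2 and 3). The numbers, which come from the titles, were used to pair samples in the blocked fits and the comparisons within replicate numbers. The main fit and the main tests of shares and ratios did not use this pairing. Named genes were the 6 loci and, for likeness, the nearest gene of the 2 with the largest fold change, since at most 2 risen genes without annotation were to be named. The genes and lists were chosen with earlier results of these data known. Alternatives were DESeq2 1.42.0, limma-voom (limma 3.58.1), other scalings and filters, the block, and each library left out. The reference table in hand carries none of these locus identifiers, so other pathway genes were not described and no sequences are shown.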

Additional observations from a re-analysis of the deposited data

How the results depend on the processing

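The fold changes of the 5 genes tested stayed above 0 in all 75 fits under 15 alternatives, and 67 of these passed the threshold. HMGR1, HMGR2 and SSR2 passed in every one. Only SQS and CAS lost their calls, and across the fits that left out 1 library the count of higher genes among the 5 ran from 3 to 5. SQS also lost its call with library size only (log2 fold change 0.67, adjusted p = 0.0834 in edgeR, 0.00146 to 0.105 over the alternatives), a scaling that moved the median of all genes tested to -0.14 from 0.02 and the share of higher among all calls to 35.4% from 47.6%. The cause was not tested. The adjusted p of CAS ran from 0.000322 (limma-voom with the replicate block) to 0.0609 (edgeR without protoplasted replicate 1) over the alternatives. That of HMGR3, in the edgeR fit without a filter, ran from 0.0763 to 0.218 over its alternatives.

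With the replicate block in edgeR the adjusted p was 0.00274 for SQS and 0.000842 for CAS, and the block changed no call of the 5 genes. With the replicate block in limma-voom, added after seeing the data, 4182 of all genes tested were higher, against 2806 in limma-voom without it. In edgeR the counts were 3985 with the block and 2711 without it. The edgeR count without the block ran from 1522 to 2747 in the fits that left out 1 library, which have fewer samples. With at least 10 counts in every sample 257 genes, against 663, were past a log2 fold change of 2, a filter that removes genes low in 1 group.

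With a pseudocount of 2 in place of 0.5 the group difference in the log2 ratio turned to 0.12 for HMGR1 to HMGR3. For HMGR3 to SSR2 it turned to -0.11. HMGR3, which is in both ratios, has low counts. Leaving out 1 library gave differences of -0.69 to 0.0037 for HMGR1 to HMGR3, -0.18 to 0.31 for HMGR1 to SSR2 and -0.090 to 0.83 for HMGR3 to SSR2, so these 3 have no settled sign. The other 12 ratios and the 3 shares kept their direction. For the share of HMGR3 this means little, since its difference of 0.096 percentage points fell to 0.0015 without whole replicate 2. Depth limits HMGR3 most, with at most 14.4 estimated counts in a library.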
